A study of Mus musculus with 56 samples.

Results

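The genes described here code for subunits of the phagocyte NADPH oxidase: Cyba, Ncf1, Ncf4 and Rac2. They were chosen as the listed subunit genes on autosomes, and each was described by all deposited peaks whose centre lies at most 25 kb from the transcription start (TSS) of the gene, which gave 115 of 297361 peaks. Chromatin accessibility had been measured by ATAC-seq, which reads out where a transposase can cut open DNA, in 56 libraries of 1000 cells. The cells were single-cell clones of mouse bone marrow myeloid progenitors kept from maturing by Hoxb8-ER, a transcription factor fused to an oestrogen receptor domain and held active by 0.5 µM beta-estradiol. All 28 clones came from a Tet2 fl/fl background, and each was divided into a Tet2 KO line, which had received Cre from an integrase-deficient lentivirus, and a control line, which had received GFP from the same kind of virus. The groups were 4 Tet2 KO and 4 control lines of GM-CSF clones (19 to 22, 10 ng/ml GM-CSF) and 24 Tet2 KO and 24 control lines of SCF clones (1 to 5, 7 to 18 and 23 to 29, about 100 ng/ml stem cell factor). Every clone was grown in 1 cytokine only, so that cytokine and clone cannot be told apart, and every line is 1 clone. The titles of clones 20, 21 and 22 name SCF, whereas their treatment field and the design text give GM-CSF, and they were placed with GM-CSF.

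The phagocyte oxidase is the enzyme with which neutrophils and macrophages make superoxide. A membrane-bound flavocytochrome, formed by gp91phox (Cybb) and p22phox (Cyba), carries electrons from NADPH to oxygen, but it does so only when cytosolic subunits, among them p47phox (Ncf1) and p40phox (Ncf4), and the GTPase Rac2 join it at the membrane. In humans, inherited loss of a flavocytochrome or cytosolic phox subunit causes chronic granulomatous disease. Cyba lies on chromosome 8, Ncf1 on chromosome 5, and Ncf4 and Rac2 both on chromosome 15, each gene with its own TSS.

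Peaks were 301 bp wide, and positions below are given as the distance of a peak's centre from the TSS, negative upstream, on mm10. Cyba (chr8:122424776-122432930, minus strand) had 31 peaks, Ncf1 (chr5:134220053-134229625, minus strand) 27, Ncf4 (chr15:78244801-78262580, plus strand) 24 and Rac2 (chr15:78559167-78572783, minus strand) 33. Accessibility is given as CPM, the counts in a peak per 1000000 counts of the library in all peaks. A peak was called open where the counts of at least 1 of the 4 groups, pooled over its libraries, reached 5 CPM. By that measure 33 of the 115 peaks were open, which is 28.7% against 16.9% of all peaks. The members' peaks were all taken near a TSS, whereas all peaks lie at any distance, so these shares do not compare like with like. The open peaks numbered 8 at Cyba, 5 at Ncf1, 8 at Ncf4 and 12 at Rac2, and they held 80.6% of the members' counts. The other 82 peaks had 14 to 72 counts each over all libraries and averaged 1.6 CPM.

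The sequences below are the middle 201 bases of the peaks called in any fit between GM-CSF and SCF lines, and of the Cyba peak at -4.0 kb, which had too few counts to be fitted and is shown for its levels, each on the strand of its gene, read from the RefSeq genome GRCm38 (the assembly of mm10). Capitals mark matches on either strand to core motifs of myeloid factors. The letters searched were GAGGAA and GGAAGT for PU.1, TTGCGCAA and TTGCNNAA for C/EBP, TGTGGT for RUNX, GAAANNGAA for IRF, TGANTCA for AP-1 and GGGCGG for the SP and KLF families, and matches that overlap are run together.
Cyba, 5.2 kb upstream, chr8:122438015-122438215: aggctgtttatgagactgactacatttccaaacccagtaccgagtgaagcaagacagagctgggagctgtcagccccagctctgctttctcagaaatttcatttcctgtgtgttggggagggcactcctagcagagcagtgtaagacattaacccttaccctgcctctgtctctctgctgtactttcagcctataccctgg
Cyba, 4.0 kb upstream, chr8:122436807-122437007: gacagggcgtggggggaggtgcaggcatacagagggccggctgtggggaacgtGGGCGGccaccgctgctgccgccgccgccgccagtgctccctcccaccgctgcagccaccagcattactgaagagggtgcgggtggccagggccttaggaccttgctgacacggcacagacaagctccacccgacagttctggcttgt
Cyba, 2.6 kb downstream, chr8:122430205-122430405: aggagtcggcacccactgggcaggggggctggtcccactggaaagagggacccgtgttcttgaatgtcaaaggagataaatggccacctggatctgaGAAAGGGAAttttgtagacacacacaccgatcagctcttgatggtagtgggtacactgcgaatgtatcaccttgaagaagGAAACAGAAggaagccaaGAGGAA
Ncf1, 7.4 kb upstream, chr5:134236944-134237144: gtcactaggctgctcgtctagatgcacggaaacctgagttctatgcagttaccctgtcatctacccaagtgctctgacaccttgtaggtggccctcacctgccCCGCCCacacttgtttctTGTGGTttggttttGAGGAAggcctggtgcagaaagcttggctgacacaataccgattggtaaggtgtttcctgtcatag
Ncf4, 1.6 kb downstream, chr15:78246269-78246469: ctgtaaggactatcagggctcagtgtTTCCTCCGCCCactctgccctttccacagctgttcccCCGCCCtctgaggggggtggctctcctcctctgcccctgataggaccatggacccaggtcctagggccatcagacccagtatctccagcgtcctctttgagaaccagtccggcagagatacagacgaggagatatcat
Ncf4, 13.6 kb downstream, chr15:78258349-78258549: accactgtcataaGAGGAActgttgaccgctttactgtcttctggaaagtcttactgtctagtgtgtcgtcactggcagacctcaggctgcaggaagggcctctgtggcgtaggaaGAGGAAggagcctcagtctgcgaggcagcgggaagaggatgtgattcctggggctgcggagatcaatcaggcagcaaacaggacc
Rac2, 19.2 kb upstream, chr15:78591861-78592061: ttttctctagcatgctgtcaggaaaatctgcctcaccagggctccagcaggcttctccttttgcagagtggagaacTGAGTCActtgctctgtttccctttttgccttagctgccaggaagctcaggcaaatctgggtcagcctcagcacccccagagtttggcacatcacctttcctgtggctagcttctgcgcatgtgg
The Cyba peak at +2.6 kb, the Ncf1 peak at -7.4 kb and the Ncf4 peaks at +1.6 and +13.6 kb held GAGGAA, the +13.6 kb peak at 2 places. GAGGAA was found in 28.4% of 272838 distal peak windows of the same length, so that a match alone is common. The Cyba peak at +2.6 kb also held 2 GAAANNGAA matches (present in 6.67% of windows), and the Ncf1 peak at -7.4 kb held TGTGGT (22.3%) and GGGCGG (5.75%). The Ncf4 peak at +1.6 kb held GGGCGG at 2 places. The Cyba peak at -5.2 kb held none of these letters, the one at -4.0 kb held GGGCGG only, and the Rac2 peak at -19.2 kb held TGANTCA only (9.66% of windows).

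Of the 4 members, 2 had an entry in the RefSeq promoter table (GRCm38), and their promoters are shown as the fixed point against which the distal peaks are set below.
Cyba promoter, chr8:122432891-122433190: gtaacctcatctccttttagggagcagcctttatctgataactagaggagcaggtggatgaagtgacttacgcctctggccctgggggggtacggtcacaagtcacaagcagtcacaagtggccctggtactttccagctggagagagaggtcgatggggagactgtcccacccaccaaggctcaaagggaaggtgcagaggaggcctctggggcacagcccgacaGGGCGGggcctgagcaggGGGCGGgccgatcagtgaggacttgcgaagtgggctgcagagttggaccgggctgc
Ncf1 promoter, chr5:134229576-134229875: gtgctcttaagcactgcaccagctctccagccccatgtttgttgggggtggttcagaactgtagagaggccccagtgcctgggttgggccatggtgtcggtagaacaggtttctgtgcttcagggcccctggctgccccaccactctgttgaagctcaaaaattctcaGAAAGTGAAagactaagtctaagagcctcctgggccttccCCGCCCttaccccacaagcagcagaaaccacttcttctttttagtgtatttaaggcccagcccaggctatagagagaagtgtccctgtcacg
The Cyba promoter held 2 GGGCGG matches, and the Ncf1 promoter held 1 GGGCGG and 1 GAAANNGAA match. These letters were found in 35.7% (GGGCGG) and 8.56% (GAAANNGAA) of 32851 promoters of the same length. The peak nearest the Cyba TSS (+0.4 kb, in its intron) lies outside the promoter window shown, whereas the nearest Ncf1 peak (-0.1 kb) overlaps it.

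Total counts per library ranged from 39379 to 1079233. The 4 GM-CSF Tet2 KO libraries held 40876, 39379, 468878 and 437883 counts (clones 19 to 22), and the 4 GM-CSF control libraries held 114885, 88234, 543364 and 766838. GM-CSF clones 19 and 20 and SCF clones 3, 4, 13 and 27 had at least 1 library under 50% of the median total. The Tet2 locus itself differed by a log2 of 0.03 between KO and control lines of SCF clones (SE 0.13, adjusted p = 0.927), a window around the TSS that does not measure the deletion. All 7 stem and progenitor markers were lower in GM-CSF than in SCF lines, both in KO and in control lines, with summed levels of 143 to 342 CPM in GM-CSF KO, 125 to 238 CPM in GM-CSF control, 346 to 648 CPM in SCF KO and 290 to 613 CPM in SCF control libraries. Of the neutrophil markers, S100a8, S100a9, Ngp and Ltf were higher and Mpo and Ctsg lower in GM-CSF lines, with summed levels of 636 to 736 CPM in GM-CSF KO, 618 to 824 CPM in GM-CSF control, 469 to 844 CPM in SCF KO and 597 to 851 CPM in SCF control libraries. Of the monocyte markers, Klf4 and Ccr2 were lower in GM-CSF lines and none was higher. The summed levels of basophil and mast cell markers had medians of 23.7 CPM in GM-CSF KO, 24.1 CPM in GM-CSF control, 63.0 CPM in SCF KO and 64.5 CPM in SCF control libraries, with Cpa3 lower in both line types and Mcpt8 in control lines. Itga2b of the megakaryocyte, Pax5 and Ebf1 of the lymphoid and Pdgfrb of the non-blood markers were also lower in GM-CSF lines of both types. The part of these shifts in the results below was not tested. In bulk libraries a change in the makeup of the cells and a change within each cell cannot be told apart. Within groups, 3 pairs of libraries were not found to differ beyond the sampling noise of their counts (chi-square test over loci). Among SCF KO lines the pair was 13 and 16 (p = 0.514). Among GM-CSF clones it was 19 and 20, both in KO lines (p = 0.711) and in control lines (p = 0.228). The GM-CSF KO pair was tested on 1090 loci of shallow libraries, where a difference could be missed. These p-values do not show that the lines, which are separate clones, are alike. Each pair was counted as 1 sample in means and SDs. The fits took every library as a sample, apart from an alternative for the cytokine comparisons in which these pairs were summed.

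The locus of a gene was taken as the sum of its peaks within 10 kb of the TSS, 14 peaks for Cyba, 12 each for Ncf1 and Ncf4 and 17 for Rac2. Since the number of peaks differs, these sums were compared between libraries and not between genes. The first comparison asked how the loci differ between GM-CSF and SCF clones. The authors describe the former as macrophage progenitors and the latter as neutrophil-biased. The markers given above did not divide along these names. In GM-CSF lines 4 neutrophil markers were higher and 2 lower, and no monocyte marker was higher. Cyba, Ncf4 and Rac2 were more accessible in GM-CSF KO lines than in SCF KO lines, and Cyba, Ncf4 and Ncf1 were more accessible in GM-CSF control lines than in SCF control lines. Of the 4 members, Cyba differed most in both line types. In the KO lines 3 of 4 members passed an adjusted p of 0.05, all higher in GM-CSF lines, where 9.96% of 11714 loci passed and 4.26% were higher. In the control lines 3 of 4 passed, all higher, where 12.4% of 12918 loci passed and 5.77% were higher. The KO lines are sister lines of the same clones, and the 3 members are not the same in both. The members were chosen with these results in view, so their counts are a description.

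Cyba, which codes for the membrane subunit p22phox, had 48.9, 50.8, 78.9 and 112 CPM in the GM-CSF KO lines of clones 19 to 22, and 21.3, 47.1 and 86.8 CPM (lowest, median and highest) in SCF KO lines. In control lines Cyba had 104, 68.0, 110 and 104 CPM in GM-CSF clones, and 30.5, 54.0 and 83.4 CPM (lowest, median and highest) in SCF clones. All 8 GM-CSF libraries lay above the SCF median of their line type and 3 of 4 control libraries and 1 of 4 KO libraries lay above every SCF library of that type. The KO values of clones 19 and 20 come from 2 counts each, with Wilson 95% intervals of 13.4 to 178 and 13.9 to 185 CPM, whereas that of clone 22 comes from 49 counts (84.7 to 148 CPM). Such intervals cover counting error only. The log2 difference, GM-CSF minus SCF, was 0.99 in KO lines (SE 0.19, 95% interval 0.61 to 1.37, 1.99-fold, adjusted p = 0.000114) and 0.95 in control lines (SE 0.15, interval 0.65 to 1.25, 1.94-fold, adjusted p = 9.63e-07). Without clone 22 the KO-line difference was 0.68 and no longer passed (adjusted p = 0.168).

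Ncf4 codes for p40phox, which binds a phosphoinositide of the phagosome membrane. It had 0, 127, 109 and 107 CPM in GM-CSF KO lines (clones 19 to 22), and 42.3, 77.1 and 116 CPM (lowest, median and highest) in SCF KO lines. In control lines Ncf4 had 69.6, 136, 120 and 116 CPM in GM-CSF clones, and 50.5, 80.6 and 104 CPM in SCF clones. The lines of clones 20, 21 and 22 lay above all SCF control libraries and near or above the highest SCF KO library, while both lines of clone 19 lay below the SCF median. The 0 in the KO line of clone 19 stands against a library of 40876 counts, in which a count of 0 allows up to 73.4 CPM by the limit of 3 counts and up to 94.0 CPM by the Wilson 95% interval, on either side of the SCF KO median. The log2 difference was 0.53 in KO lines (SE 0.18, 1.44-fold, adjusted p = 0.0414) and 0.57 in control lines (SE 0.13, 1.49-fold, adjusted p = 0.00129). The KO-line call was lost without clone 20 (adjusted p = 0.0592), 21 (0.355) or 22 (0.311), and the control-line call without clone 22 (0.0516), at log2 differences of 0.47 to 0.57.

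Ncf1 codes for p47phox, the organiser that is phosphorylated on activation and docks on p22phox. It had 73.4, 102, 96.0 and 103 CPM in GM-CSF KO lines (clones 19 to 22), and 44.6, 77.0 and 127 CPM (lowest, median and highest) in SCF KO lines. In control lines Ncf1 had 43.5, 102, 95.7 and 134 CPM in GM-CSF clones, and 45.5, 83.4 and 122 CPM in SCF clones. The groups overlapped over most of their range in both line types, and the control line of clone 19 was below every SCF control library. The log2 difference was 0.32 in KO lines (SE 0.18, interval -0.04 to 0.68, adjusted p = 0.3) and 0.43 in control lines (SE 0.14, 1.35-fold, adjusted p = 0.0345). The control-line call rested on clone 22, without which the difference was 0.12 (adjusted p = 0.82), and DESeq2 did not make it (0.39, adjusted p = 0.157).

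Rac2, the Rac GTPase of blood cells, which joins the oxidase when loaded with GTP, had 171, 152, 177 and 130 CPM in GM-CSF KO lines (clones 19 to 22), and 70.3, 112 and 165 CPM (lowest, median and highest) in SCF KO lines. In control lines Rac2 had 139, 159, 127 and 125 CPM in GM-CSF clones, and 69.5, 125 and 154 CPM in SCF clones. All 4 GM-CSF KO libraries lay above the SCF KO median and 2 above every SCF KO library, whereas 12 of the 24 SCF control libraries were at or above the lowest GM-CSF control library. The log2 difference was 0.48 in KO lines (SE 0.14, 1.40-fold, adjusted p = 0.0187) and 0.09 in control lines (SE 0.13, interval -0.16 to 0.35, adjusted p = 0.713). The call in KO lines was lost without clone 21 (0.30, adjusted p = 0.511) and with DESeq2 (0.48, adjusted p = 0.0531), which did not call Ncf4 in KO lines either (0.48, adjusted p = 0.186).

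**Figure D1:**
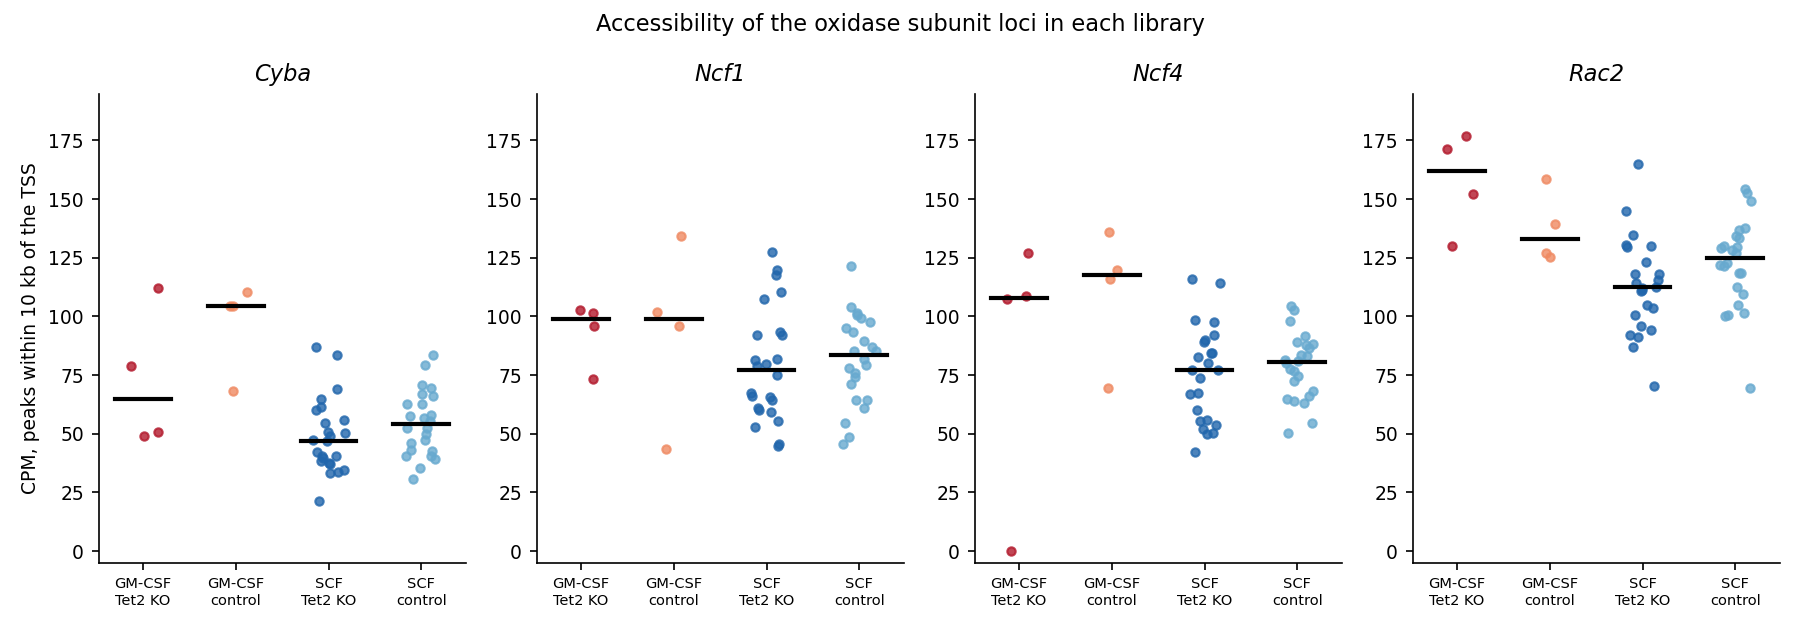
Accessibility of the 4 members (sum of peaks within 10 kb of the TSS, CPM) in each library, by group, with a black line at the group median. All GM-CSF libraries of Cyba lie above the SCF median of their line type, while Ncf1 overlaps over most of its range and the Ncf4 value of 0 belongs to the KO line of clone 19.

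The order of the 4 groups differed between genes. Cyba averaged 80.2 ± 31.0 CPM in GM-CSF KO lines (SD, n = 3), 100.3 ± 12.6 CPM in GM-CSF control lines (n = 3), 48.8 ± 16.0 CPM in SCF KO lines (n = 23) and 54.5 ± 13.8 CPM in SCF control lines (n = 24). For Ncf4 the means were 93.2 ± 25.7, 113 ± 8.86, 75.5 ± 20.2 and 78.7 ± 14.1 CPM in the same groups. Clones 19 and 20 held the lowest and highest Ncf4 values of both GM-CSF groups, so averaging them narrowed the spread. Over all 4 lines Ncf4 averaged 85.8 ± 57.9 CPM in GM-CSF KO and 110 ± 28.5 CPM in GM-CSF control lines. Cyba and Ncf4 thus ran from GM-CSF control over GM-CSF KO to SCF control and SCF KO lines, and the KO and control neighbours in that order did not differ beyond their spread. Ncf1 averaged 95.4 ± 7.66, 101 ± 31.1, 78.5 ± 22.9 and 81.6 ± 18.9 CPM, and neighbours in the order differed by less than the larger of their SDs. Rac2 averaged 156 ± 23.9, 134 ± 13.2, 113 ± 20.8 and 123 ± 19.1 CPM, and was the member whose highest mean lay in GM-CSF KO lines.

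GM-CSF lines were also set against SCF clones 23 to 29 alone, where 8.77% of loci in KO lines and 9.3% in control lines were called. Cyba kept its difference in KO lines (0.97, adjusted p = 0.00096) and in control lines (1.02, adjusted p = 9.23e-06). Ncf4 did not pass in KO lines (0.35, adjusted p = 0.289) and did in control lines (0.54, adjusted p = 0.0248). Rac2 in KO lines (0.45, adjusted p = 0.0615) and Ncf1 in control lines (0.50, adjusted p = 0.0525) fell short of the threshold at similar differences.

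The sums were then divided into the promoter, peaks within 1 kb of the TSS, and the distal part, from 1 to 25 kb. At the promoters no member passed between GM-CSF and SCF lines of either type. In KO lines the promoter difference was 0.59 for Ncf4 (adjusted p = 0.132) and 0.45 for Rac2 (adjusted p = 0.149), where 7.96% of promoter sums passed. In control lines it was 0.32 for Cyba (adjusted p = 0.533), 0.52 for Ncf4 (adjusted p = 0.0566) and -0.05 for Rac2 (adjusted p = 0.897), where 9.83% passed. The Ncf1 promoter, and that of Cyba in KO lines, did not pass the filter on low counts.

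In the distal sums, Cyba (0.43, SE 0.14, adjusted p = 0.0287) and Ncf4 (0.57, SE 0.16, adjusted p = 0.00876) were higher in GM-CSF KO lines, against 10.7% of distal sums called and 4.92% called higher. Ncf1 (0.33, adjusted p = 0.191) and Rac2 (0.39, adjusted p = 0.0722) did not pass there. In control lines Ncf1 (0.37, SE 0.13, adjusted p = 0.0465) and Ncf4 (0.42, SE 0.13, adjusted p = 0.0221) were higher in GM-CSF lines, against 13.6% called and 6.53% called higher. Cyba did not pass in that window (0.20, adjusted p = 0.303), nor did Rac2 (0.06, adjusted p = 0.856). At Rac2 the distal window takes in a peak at -24277 bp, beside the TSS of a neighbouring gene, Cyth4. The distal window of Cyba holds the promoter peak of Mvd, an enzyme of the mevalonate pathway, 10.6 kb upstream of the Cyba TSS, with pooled levels of 79.0 CPM in GM-CSF KO, 59.5 in GM-CSF control, 80.1 in SCF KO and 80.6 in SCF control lines. That peak alone exceeded every other open peak of the 4 members, and over the whole 25 kb the Cyba difference between control lines was 0.26 (adjusted p = 0.0948).

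**Figure D2:**
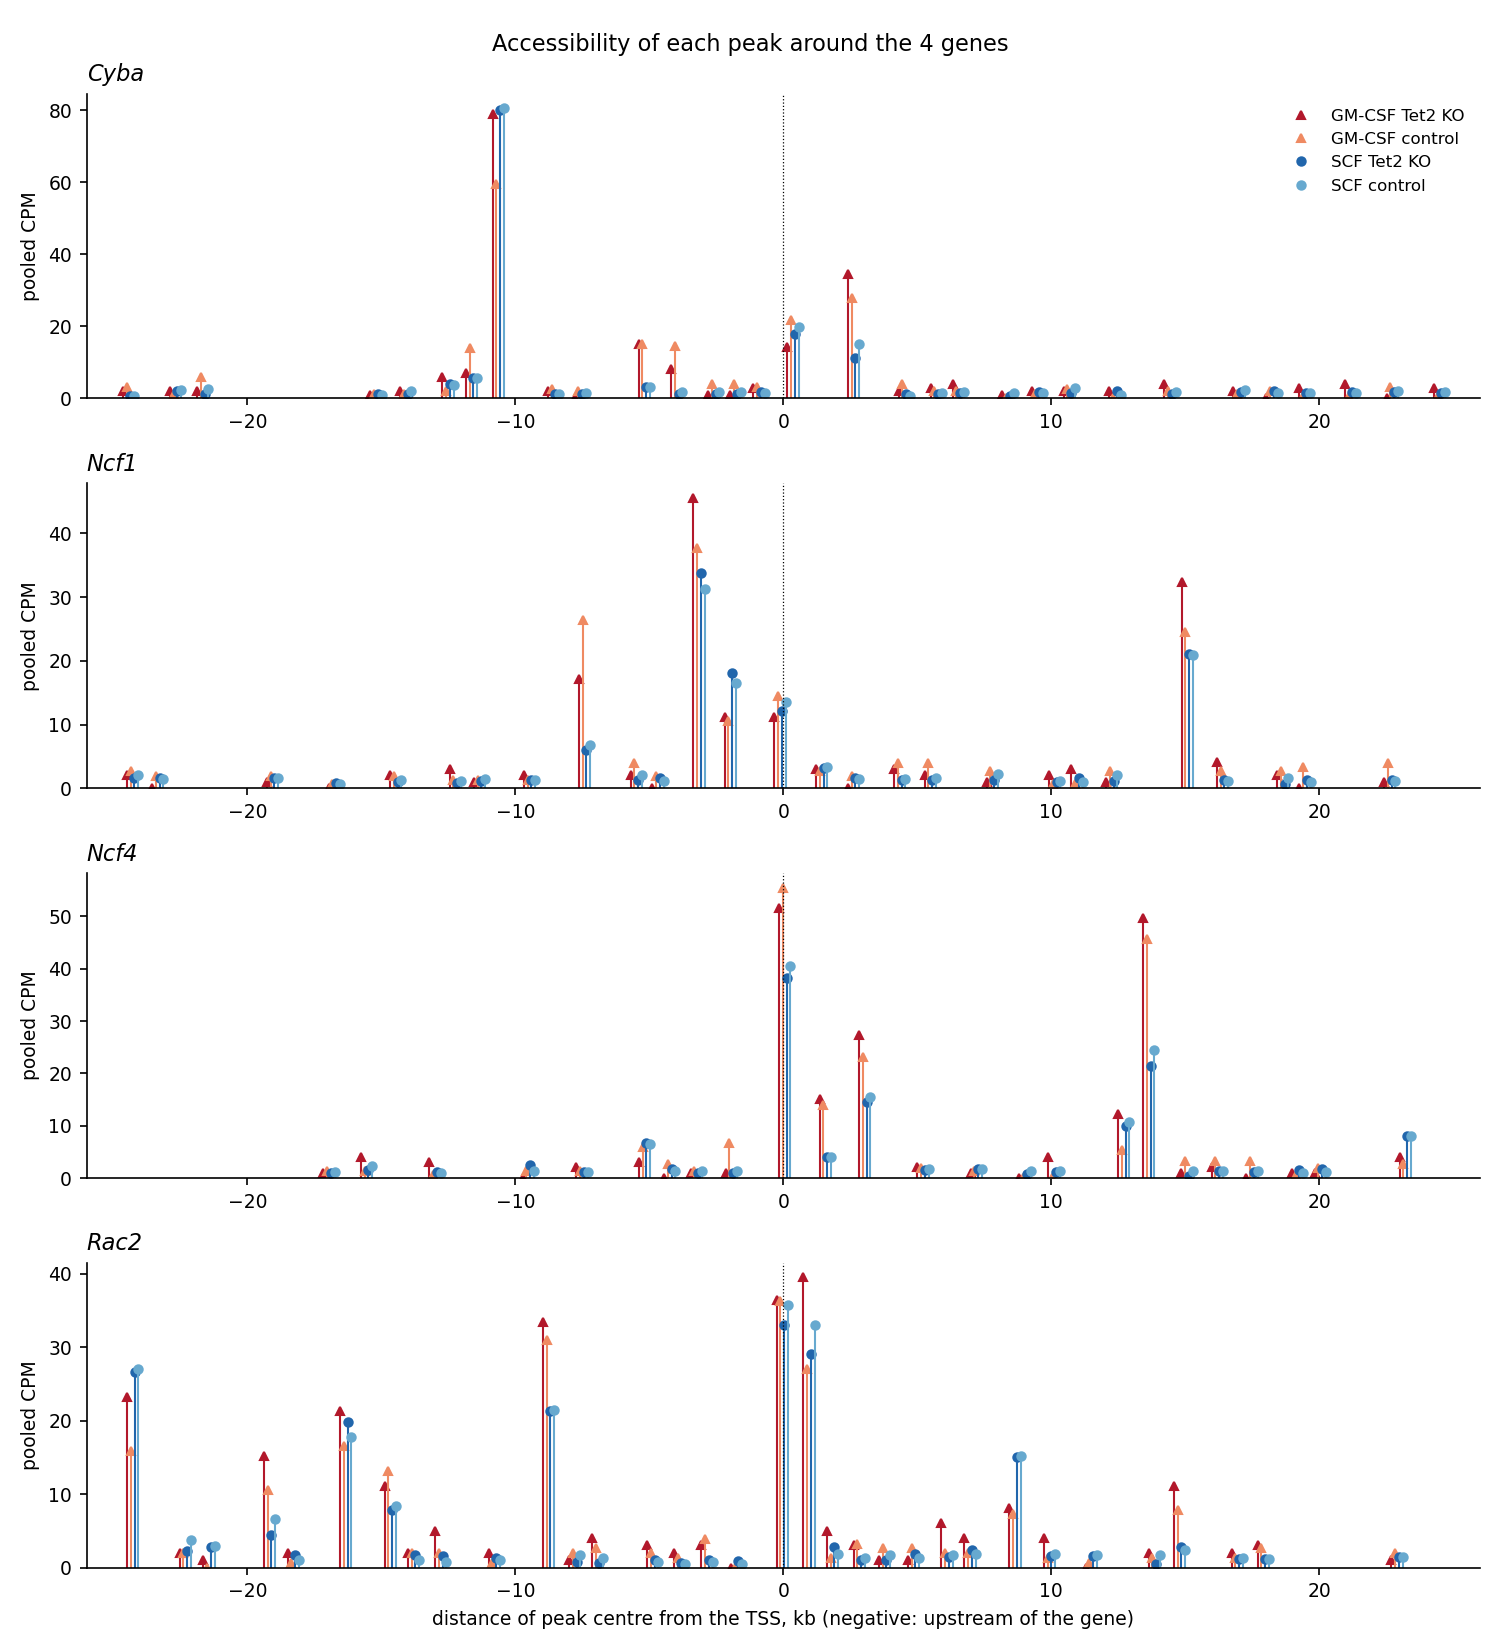
Pooled CPM of every peak within 25 kb of the TSS of each member, by distance from the TSS in kb (negative upstream), in the 4 groups. The tallest point at Cyba is the Mvd promoter at -10.6 kb, and the Ncf4 peak at +13.6 kb stands higher in both GM-CSF groups (49.6 and 45.6 CPM) than in both SCF groups (21.3 and 24.5 CPM).

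Peaks within 25 kb of the TSS were also tested singly, and those beyond 10 kb are not part of the 10 kb sums. With the standard filter on low counts, 11 member peaks could be tested in KO lines and 15 in control lines, and 1 passed an adjusted p of 0.01 in each, against 10.2% of all peaks tested in KO lines (2.75% higher) and 14.7% in control lines (4.8% higher). It was the same peak, in an intron of Ncf4 13.6 kb from the TSS, and thus outside the 10 kb sum of that gene. It had 0, 76.2, 49.1 and 52.5 CPM in GM-CSF KO lines (clones 19 to 22), and 2.23, 20.4 and 37.6 CPM (lowest, median and highest) in SCF KO lines. In control lines it had 17.4, 113, 33.1 and 50.9 CPM in GM-CSF clones, and 4.84, 25.2 and 41.2 CPM in SCF clones. Clones 20 and 22 were above every SCF library in both line types, clone 21 in KO lines only, and clone 19 was below the SCF median. The log2 difference was 1.40 in KO lines (SE 0.28, 2.64-fold, adjusted p = 8.25e-05) and 1.02 in control lines (SE 0.23, 2.03-fold, adjusted p = 0.000423). The peak at the Ncf4 TSS differed by 0.65 in KO lines (adjusted p = 0.0613) and 0.58 in control lines (adjusted p = 0.0152), short of the threshold for peaks.

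Most distal peaks are too sparse for that filter, so a fit of all peaks with at least 50 counts over the libraries compared was added after the data had been seen. It tested 24 member peaks in KO lines, of which 4 were called, against 7.83% of 27403 peaks (2.85% higher), and 25 in control lines, of which 4 were called, against 11% of 36026 peaks (4.51% higher). In KO lines they were Cyba at +2.6 kb, Ncf4 at +1.6 and +13.6 kb and Rac2 at -19.2 kb, and in control lines they were Cyba at -5.2 kb, Ncf1 at -7.4 kb and Ncf4 at +1.6 and +13.6 kb. The Cyba peak at -5.2 kb, the Ncf4 peak at +1.6 kb and the Rac2 peak at -19.2 kb reached 50 counts only with the counts of the GM-CSF lines, so their passing of the filter is not independent of their difference. They account for 4 of the 8 calls, and the direction of the calls, higher in GM-CSF lines in all 8, is therefore a description only. Against SCF clones 23 to 29 alone, 2 of 15 member peaks were called in KO lines, against 9.19% of peaks (286 of 13684 were called higher). In control lines 3 of 17 were called, against 12.9% (674 of 15478 were called higher). The 50 counts were again taken over the libraries compared, so peaks could enter this fit through the GM-CSF lines. These calls, all higher in GM-CSF lines, are a description only.

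The Ncf1 peak at -7.4 kb lies between genes, upstream of the promoter. It had 0, 25.4, 12.8 and 22.8 CPM in GM-CSF KO lines (clones 19 to 22, from 17 counts), and 0, 3.56 and 17.6 CPM (lowest, median and highest) in SCF KO lines. In control lines it had 8.70, 45.3, 22.1 and 30.0 CPM in GM-CSF clones (40 counts), and 0, 7.05 and 13.6 CPM in SCF clones. In control lines 3 of 4 GM-CSF libraries exceeded every SCF library. The log2 difference was 1.63 in KO lines (SE 0.48, adjusted p = 0.0122) and 1.98 in control lines (SE 0.35, 3.95-fold, adjusted p = 1.68e-06). An exact permutation test of its CPM over the libraries, two-sided with 20475 arrangements, gave p = 0.0158 in KO lines and p = 0.000977 in control lines. The KO-line p was 0.101 without clone 20 and 0.0875 without clone 22, and the control-line p lay between 0.000684 and 0.00684 when each GM-CSF clone was left out. These exact tests took each library as a sample, and with the library pairs within sampling noise averaged (3 GM-CSF samples) they gave p = 0.00769 in KO lines and p = 0.000684 in control lines. By contrast, the promoter peak of Ncf1 had pooled levels of 11.1 CPM in GM-CSF KO, 14.5 in GM-CSF control, 12.1 in SCF KO and 13.5 in SCF control lines, and its control-line difference was 0.19 (SE 0.38, adjusted p = 0.792).

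At Cyba, the peaks at -5.2 and -4.0 kb lie in introns of Mvd, and that at +2.6 kb lies in an intron of Cyba and within 10 kb of the TSS of Il17c, a cytokine gene. The peak at -5.2 kb had 24.5, 50.8, 4.27 and 22.8 CPM in GM-CSF KO lines (clones 19 to 22, 15 counts), and 0, 2.50 and 22.0 CPM (lowest, median and highest) in SCF KO lines. In control lines it had 8.70, 11.3, 20.2 and 13.0 CPM in GM-CSF clones (23 counts), and 0, 3.00 and 17.4 CPM in SCF clones (35 counts). All 4 GM-CSF control libraries lay above the SCF median and 1 above every SCF library. The control-line difference was 2.20 (SE 0.46, adjusted p = 6.39e-05), and the exact permutation test gave p = 0.00293. The peak reached 50 counts only through the GM-CSF lines, so neither p-value is independent of the filter. Pooled levels of the peak at -4.0 kb were 8.11 CPM in GM-CSF KO, 14.5 in GM-CSF control, 1.33 in SCF KO and 1.93 in SCF control lines, with too few counts for either fit. That peak met the 5 CPM of an open peak only in the GM-CSF groups, so its being shown is not independent of this difference.

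The Cyba peak at +2.6 kb had 0, 0, 34.1 and 41.1 CPM in GM-CSF KO lines (clones 19 to 22, 34 counts), and 3.07, 8.74 and 28.0 CPM (lowest, median and highest) in SCF KO lines. In control lines it had 34.8, 11.3, 27.6 and 28.7 CPM in GM-CSF clones, and 0, 14.2 and 31.5 CPM in SCF clones. The deeply sequenced KO lines of clones 21 and 22 exceeded every SCF KO library, and the shallow ones of clones 19 and 20 had no count. The fitted difference was 1.66 in KO lines (SE 0.35, adjusted p = 0.00013) and 0.96 in control lines (SE 0.30, adjusted p = 0.0137), while the exact permutation test, which weights all libraries alike, gave p = 0.195 in KO lines, or 0.0431 with the pair of clones 19 and 20 averaged. The peak nearest the Cyba TSS had pooled levels of 14.2 CPM in GM-CSF KO, 21.8 in GM-CSF control, 18.0 in SCF KO and 19.8 in SCF control lines and a fitted difference of -0.22 in KO lines (SE 0.44, adjusted p = 0.795) and 0.25 in control lines (SE 0.31, adjusted p = 0.645). Its mean over libraries was lower in GM-CSF KO lines (7.73 CPM) than in SCF KO lines (17.8 CPM) by the exact permutation test (p = 0.0117), where clones 19 and 20 had no count, and p was 0.0718 without either of them and 0.0769 with the pair averaged.

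The Ncf4 peak at +1.6 kb, in an intron, had 0, 0, 14.9 and 18.3 CPM in GM-CSF KO lines (clones 19 to 22), and 0, 4.26 and 22.2 CPM (lowest, median and highest) in SCF KO lines. In control lines it had 0, 11.3, 14.7 and 15.6 CPM in GM-CSF clones, and 0, 3.23 and 18.7 CPM in SCF clones. Every GM-CSF value lay inside the range of the SCF libraries. The fitted difference was 1.88 in KO lines (SE 0.52, adjusted p = 0.00653) and 1.77 in control lines (SE 0.46, adjusted p = 0.00201), whereas the exact permutation test gave p = 0.27 in KO lines and p = 0.111 in control lines.

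Rac2 had peaks that pointed in both directions. Its peak at -19.2 kb, also within the locus of Cyth4, a guanine nucleotide exchange factor of ARF GTPases, had pooled levels of 15.2 CPM in GM-CSF KO, 10.6 in GM-CSF control, 4.45 in SCF KO and 6.62 in SCF control lines, and a KO-line difference of 1.78 (SE 0.52, adjusted p = 0.00992). The exact permutation test of that peak gave p = 0.168. In KO lines the peak at -19.2 kb reached 50 counts only with the GM-CSF lines, so neither p-value is independent of the filter. The intronic peak at +8.7 kb had 8.11 CPM in GM-CSF KO, 7.27 in GM-CSF control, 15.1 in SCF KO and 15.2 in SCF control lines, with differences of -0.73 in KO lines (adjusted p = 0.387) and -0.93 in control lines (adjusted p = 0.137). Its exact test in KO lines gave p = 0.0185, p = 0.0779 without clone 19 or clone 20, and p = 0.0838 with that pair averaged. The peaks at the Rac2 TSS and at +1.0 kb held 36.5 and 39.5 CPM in GM-CSF KO, 36.3 and 27.1 in GM-CSF control, 33.0 and 29.1 in SCF KO and 35.7 and 33.0 in SCF control lines, and neither passed in any comparison. The exact test was run on the 13 member peaks in KO lines and 10 in control lines that had at least 50 counts but no fit under the standard filter, and its p-values are not adjusted. Lower means in GM-CSF lines with an unadjusted p under 0.05 were also found for Ncf4 at -5.2 kb in KO lines (p = 0.022) and at +23.2 kb in KO (p = 0.0208) and control lines (p = 0.0132), on 3 or 4 counts in the GM-CSF libraries. The KO-line values were 0.0892 and 0.0854 in the exact test with the pair averaged. Higher means were found in control lines for Rac2 at -14.7 kb (14.3 CPM in GM-CSF and 7.77 CPM in SCF lines, p = 0.0188, or 0.13 without clone 20) and Cyba at -11.6 kb (11.5 and 5.39 CPM, p = 0.0488, or 0.112 to 0.215 without clone 19, 21 or 22), and neither passed in the fit of peaks with at least 50 counts.

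The next comparison asked what loss of Tet2, an enzyme that oxidises methylated cytosine, did at these loci when sister lines of SCF clones were compared clone by clone. None of the 4 members was called, where 6.17% of 10427 loci were (485 higher and 158 lower in KO lines, or 332 and 262 under upper-quartile scaling). All 4 members had a slightly lower fitted level in KO lines. The log2 difference, KO minus control, was -0.18 for Cyba (SE 0.10, interval -0.38 to 0.01, adjusted p = 0.289), -0.06 for Ncf1 (SE 0.08, adjusted p = 0.737), -0.09 for Ncf4 (SE 0.08, adjusted p = 0.599) and -0.12 for Rac2 (SE 0.07, interval -0.25 to 0.02, adjusted p = 0.337). The intervals leave out a 1.5-fold change in either direction, a size that simulated data recovered in 97.9% of loci. The KO line was the lower of its pair in 17 of 24 clones for Cyba, 13 for Ncf1, 15 for Ncf4 and 14 for Rac2. Within clones 23 to 29 the fitted differences of Ncf4 (0.06) and Rac2 (0.01) had the other sign.

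The promoter sum of Rac2 was lower in KO lines in 18 of 24 SCF pairs, with levels of 30.8, 57.2 and 91.1 CPM (lowest, median and highest) in KO lines and 26.1, 72.1 and 88.2 CPM in control lines. The fitted difference of -0.21 had an unadjusted p of 0.0125 and did not pass (adjusted p = 0.11, with 6.26% of promoter sums called). The distal sum of Rac2, which includes the peak beside the Cyth4 TSS, was higher in KO lines in 14 of 24 SCF pairs. Among them were all 7 of clones 23 to 29, and the fitted difference over all SCF clones was -0.01 (adjusted p = 0.977). For the Ncf4 promoter it was -0.21 (adjusted p = 0.272). Of single peaks, 5 were tested with the standard filter and 30 with at least 50 counts, and none was called, against 2.5% and 0.158% of all peaks.

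**Figure D3:**
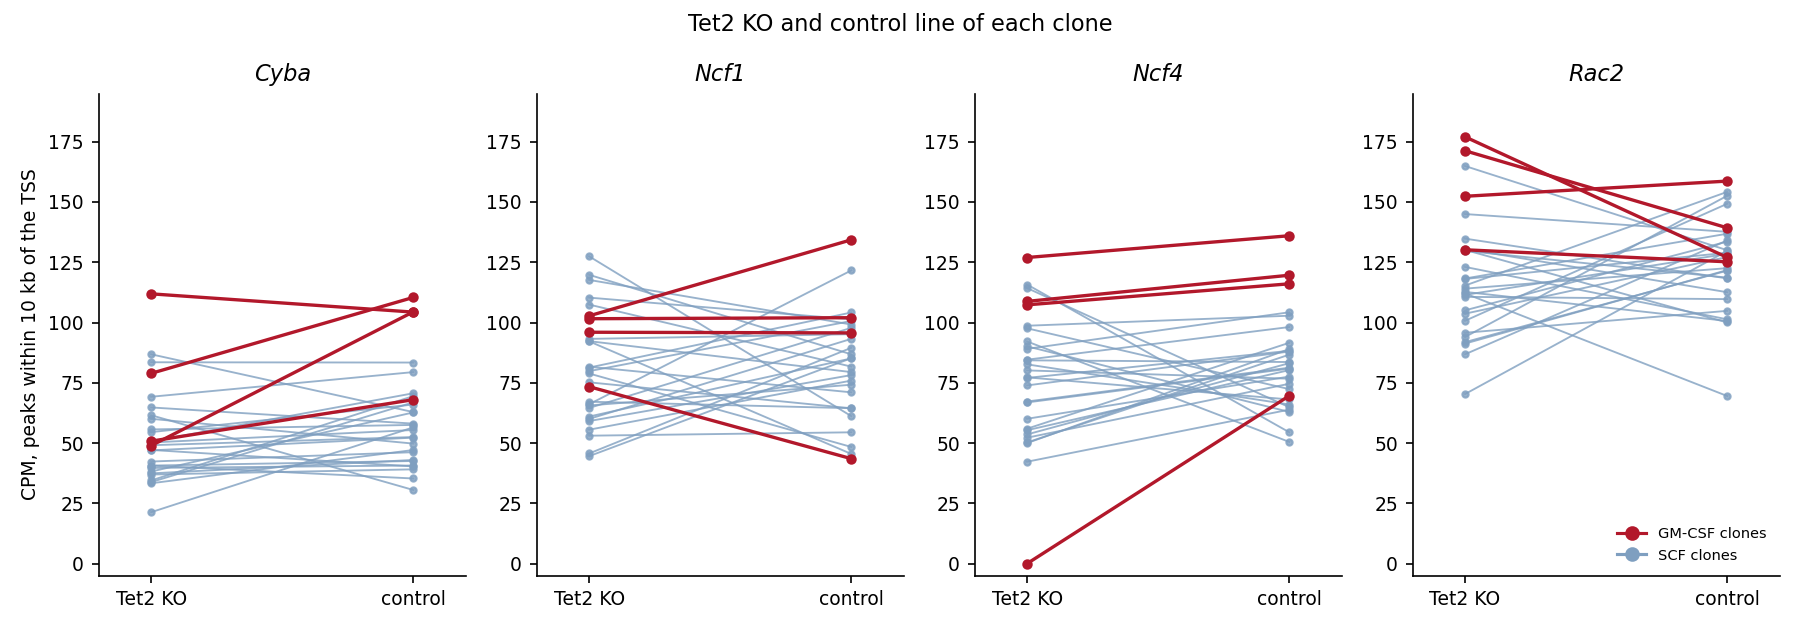
KO and control values (CPM, 10 kb sums) of the 4 members in each clone, joined by a line per clone, for GM-CSF and SCF clones. Among SCF clones lines run in both directions at every member, with the KO line lower in 17 of 24 for Cyba and in 13 of 24 for Ncf1, and among GM-CSF clones the KO line is lower in 4 of 4 for Ncf4.

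In GM-CSF clones, KO and control lines were compared in 1 fit of all 56 libraries. No locus of 13135 passed (0%), with 706 at an unadjusted p under 0.05, and DESeq2 called none either, with 522. The KO minus control difference was -0.17 for Cyba (SE 0.21), -0.13 for Ncf1 (SE 0.21), -0.14 for Ncf4 (SE 0.20) and 0.28 for Rac2 (SE 0.18), with intervals of -0.57 to 0.24, -0.54 to 0.27, -0.53 to 0.25 and -0.08 to 0.63. Ncf4 was lower in the KO line in 4 of 4 pairs, with clone 19 at 0, Cyba was lower in 3 of 4, Ncf1 in 2 of 4 and Rac2 in 1 of 4. In simulated data this design recovered 39.6% of 2-fold and 6.1% of 1.5-fold changes, so that changes of these sizes in single loci would often be missed. The difference between the KO effect in GM-CSF and in SCF clones was 0.38 for Rac2 (SE 0.19, unadjusted p = 0.0522, adjusted p = 0.999) and between -0.09 and 0.00 for the others, and none of the 13135 loci passed (551 at an unadjusted p under 0.05, and 379 with DESeq2, which called none).

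**Figure D4:**
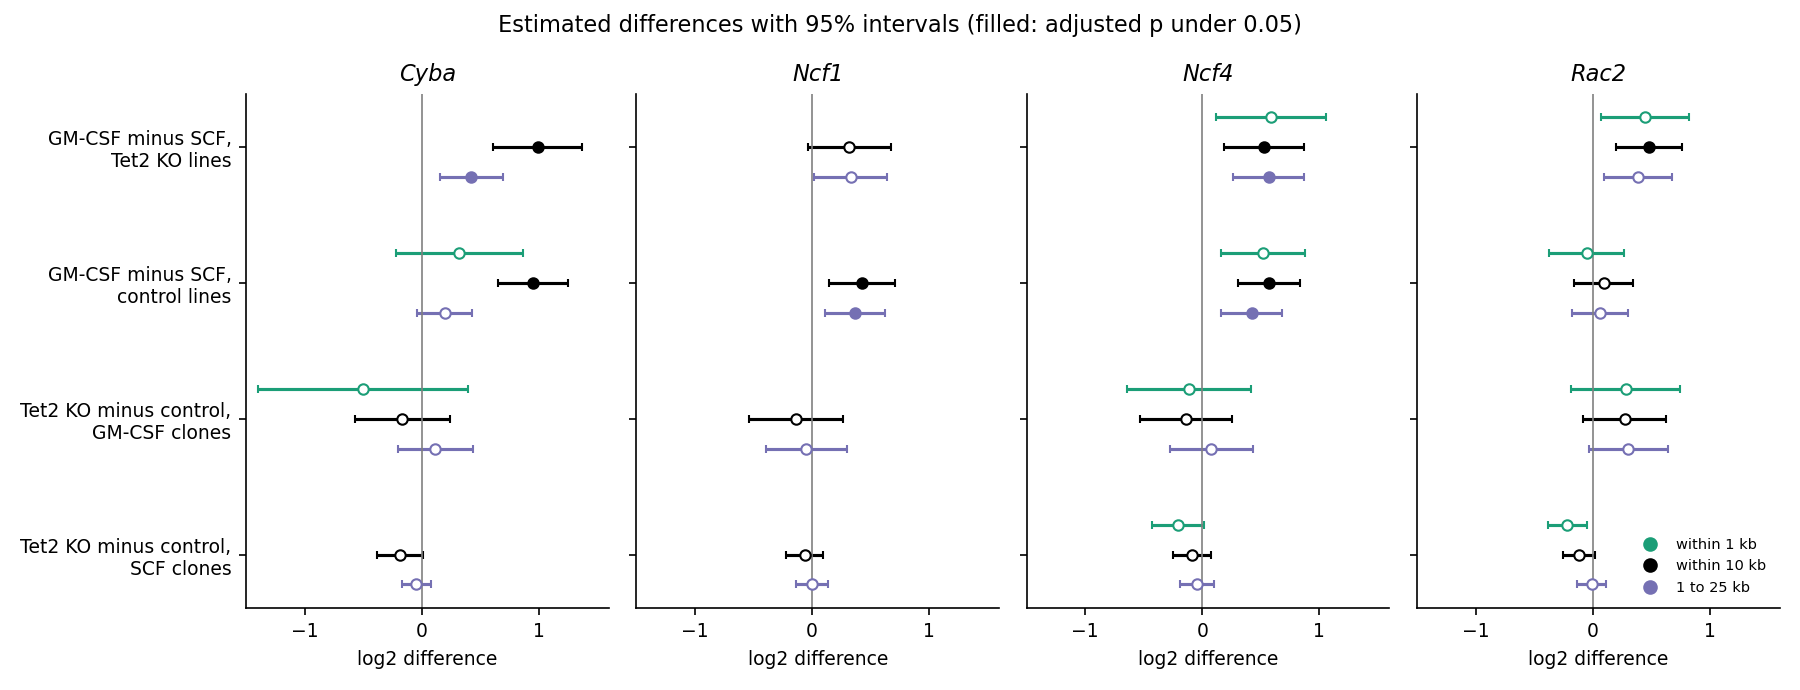
Fitted log2 differences with 95% intervals for the 4 members in each comparison, for 10 kb, 1 kb and distal sums. GM-CSF minus SCF differences of Cyba in 10 kb sums are 0.99 in KO lines and 0.95 in control lines, and the intervals of the KO minus control differences in 10 kb sums include 0 for all members. Filled points have an adjusted p under 0.05 (sums that did not pass the filter on low counts have no point).

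SCF clones also differed from one another. The test of all clone terms together, with sister lines as the spread, passed at 173 of 10427 loci (1.66%) and at none of the members. Cyba came closest (p = 0.000851, adjusted p = 0.051), followed by Ncf1 (p = 0.0107, adjusted p = 0.212), while Ncf4 (adjusted p = 0.859) and Rac2 (adjusted p = 0.991) did not differ between clones by more than sister lines did. Cyba was highest in clone 14, with 83.5 CPM in the KO and 83.4 CPM in the control line, and lowest on average in clone 8, with 40.7 CPM in the KO and 35.3 CPM in the control line. Clone 29 had the next highest mean of Cyba (86.8 CPM KO, 62.8 CPM control) and the lowest mean of Ncf1 (53.1 CPM KO, 54.5 CPM control). Rac2 in clone 14 had 70.3 CPM in the KO line and 130 CPM in the control line, so that the sisters of this clone were alike at Cyba and apart at Rac2. Within SCF control lines the coefficient of variation was 25.4% for Cyba, 23.2% for Ncf1, 17.9% for Ncf4 and 15.6% for Rac2. Over the 56 libraries the log2 CPM of the members were hardly related to each other, with Pearson r from -0.19 (Ncf4 and Rac2) to 0.28 (Ncf1 and Ncf4), over libraries that share clones and differ in depth.

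Neighbouring genes share part of the signal. Of the 14 peaks of the Cyba locus, 6 are also within 10 kb of the Il17c TSS and 7 within 10 kb of the Mvd TSS, and the annotation holds a readthrough gene, Gm20388, that spans them. Il17c passed between GM-CSF and SCF KO lines (1.12, SE 0.25, adjusted p = 0.000912) and not between control lines (0.48, SE 0.22, adjusted p = 0.162). Mvd did not pass in KO lines (0.33, adjusted p = 0.194) or control lines (0.22, adjusted p = 0.338). Within 10 kb of the TSS, no gene shared peaks with Ncf1, Ncf4 or Rac2. Cyth4, 24.3 kb from Rac2, did not pass in either line type. The distal and 25 kb windows of Rac2 reach the Cyth4 TSS, so Rac2 sums in these windows hold peaks that also lie near Cyth4.

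The loci on other chromosomes whose log2 CPM followed a member most closely over the 56 libraries were Rnd3 (Pearson r 0.67), Cd38 (0.64) and F2 (0.63) for Cyba, of 12422 loci compared. For Ncf1 they were Zfp764 (0.51), Akt1 (0.50) and Grtp1 (0.49). For Ncf4 they were Tuba4a (0.84), Nfe2l2 (0.84) and Rcan1 (0.83), and for Rac2 they were Kptn (0.57), Gm42372 (0.55) and Gadd45g (0.54). The Ncf4 values fell to 0.05, 0.30 and 0.29 within the 48 SCF libraries, so they rest on the GM-CSF libraries, among them the KO line of clone 19 with its count of 0. The other 9 had an r of 0.40 to 0.61 within SCF libraries. These libraries were among those used to pick the loci, so the values are a description and no check of the relation.

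The other genes of the oxidase pathway were taken as lists. Rac1, the widely expressed relative of Rac2, was higher in GM-CSF KO lines (0.54, adjusted p = 0.0473) and did not pass in control lines (0.27, adjusted p = 0.308). Hvcn1, the proton channel that balances the charge moved by the oxidase, had differences of 0.47 in KO lines and 0.41 in control lines and did not pass in either (adjusted p = 0.331 and 0.245), nor did Cybc1, a chaperone of the flavocytochrome (0.12 and 0.10). Cybb was not tested. Over all loci the median difference was -0.02 in KO lines and -0.01 in control lines, and the share called was 9.96% in KO lines (4.26% higher) and 12.4% in control lines (5.77% higher). The counts in the lists below stand against these shares, and 1 or 2 calls of 15 or 16 loci are near them.

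Among regulators of Rac and Rap1, 2 of 15 were higher and 1 lower in GM-CSF KO lines, and 1 was higher and 1 lower of 15 in control lines. Elmo1, a partner of DOCK exchange factors, was higher in both (0.62 in KO and 0.41 in control lines), and Arhgap25, a phagocyte GTPase-activating protein for Rac, was lower in both (-0.72 in KO and -0.72 in control lines). Of the upstream kinases and their subunits, 3 of 14 were higher in KO lines (Pik3r5 1.30, Syk 0.97, Akt1 0.61) and 3 of 15 in control lines (Pik3r5 1.55, Syk 0.72, Pik3cd 0.53), and none was lower. Pik3r5 is the regulatory subunit of the PI3-kinase gamma that acts below G protein-coupled receptors, and Syk is the kinase of Fc receptor signalling.

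Oxidases of other tissues were mostly below the filter, and Duox2 was lower in GM-CSF lines (-1.14 in KO and -1.15 in control lines) of 2 tested. Enzymes that use or remove oxidants had 1 of 16 lower in KO lines, Mpo (-0.79), the myeloperoxidase of neutrophil granules. In control lines 2 were higher (Prdx6 0.59, Gpx1 0.44) and 2 lower (Mpo -1.0, Cat -0.66). Of 10 transcription factors of myeloid cells, Spi1, which codes for PU.1, was higher (0.73 in KO and 0.60 in control lines), as was Cebpb (0.63 and 0.76), while Cebpa (-1.08 and -0.45) and Runx1 (-0.95 and -0.63) were lower. After Tet2 loss in SCF clones, where 6.17% of all loci were called, Arhgdib, an inhibitor that holds small GTPases in the cytosol, was lower (-0.48, adjusted p = 0.0163), Arhgdia (0.19) was higher, and Akt1 (-0.27) was lower. The redox genes Gclm (0.31) and Txn1 (0.25) and the factor Cebpa (0.19) were higher. None of the listed genes passed within GM-CSF clones.

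**Figure D5:**
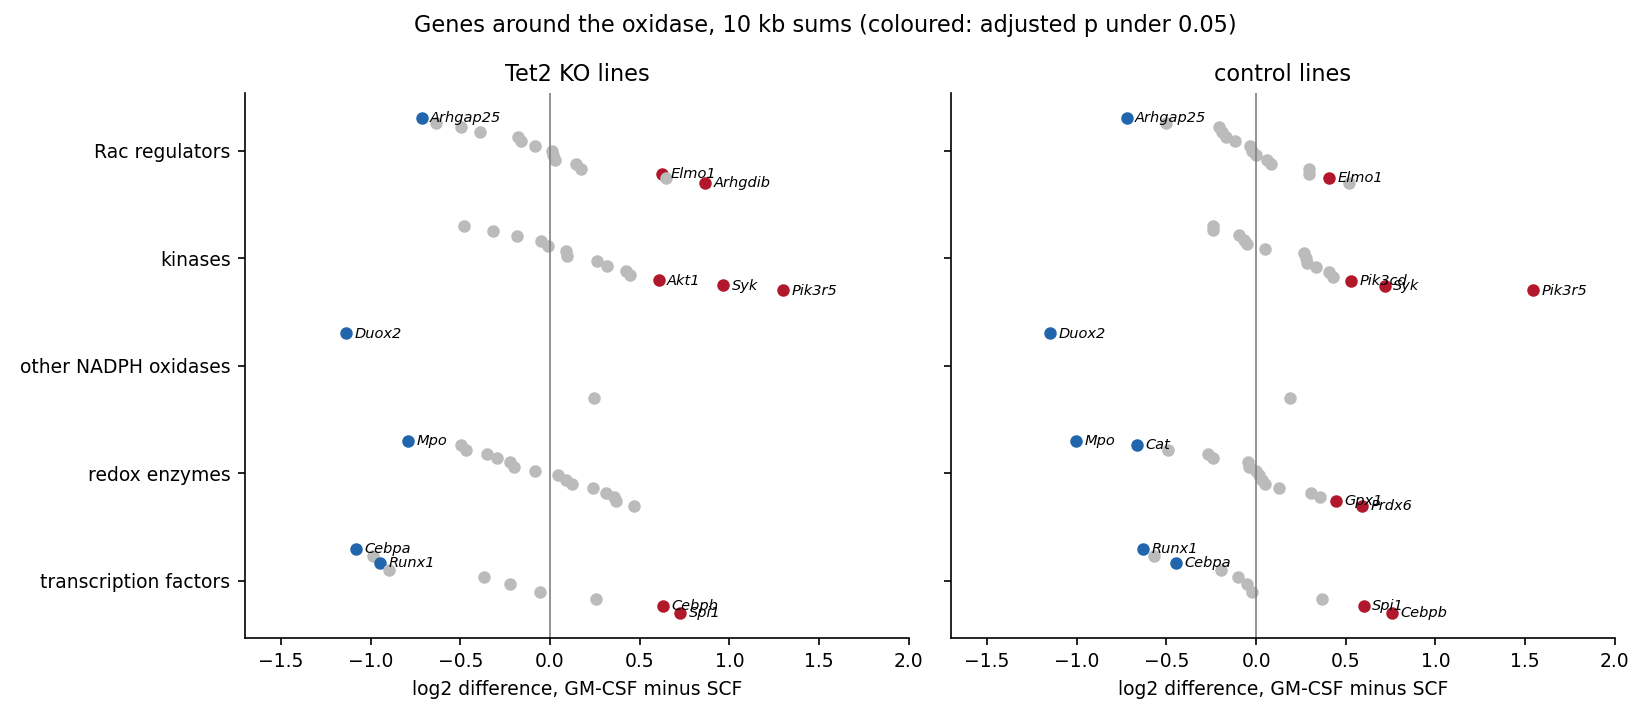
Fitted log2 differences of 10 kb sums, GM-CSF minus SCF, for the genes of 5 lists around the oxidase in KO lines and in control lines, with called loci named. Pik3r5 lies highest in both line types (1.30 and 1.55), and Mpo (-0.79 and -1.0) lies at the lower end of the redox enzymes.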

How the data were processed

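The deposited table gives ATAC-seq counts per peak for each library, which the authors made on mm10 and did not normalise. The submitters' processing notes name Bowtie2, SAMtools and Picard without versions. The members and lists were chosen with earlier results of these data known. Peaks were assigned to TSSs of the GENCODE annotation, and counts were summed within 10 kb (main), 1 kb, 25 kb, and from 1 to 25 kb. Sums passing the low-count filter of edgeR (4.0.16, R 4.3.3, minimum count 10) were tested with its quasi-likelihood test after TMM scaling, with Benjamini-Hochberg adjustment over all loci or peaks tested. Thresholds were an adjusted p under 0.05 for sums and of 0.01 or less for single peaks, and SEs are Wald SEs.

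KO and control lines were compared with the clone as a block, since sister lines come from the same clone. The deviations of sister lines from their group means correlated by -0.0281 to 0.201 in SCF clones and by 0.0183 to 0.128 in GM-CSF clones. Cytokines were compared within each line type. CPM were taken over all peaks, and log2 CPM used a prior count of 2. Named were the members, the 3 loci on other chromosomes most like each, their neighbours, and called genes of the lists, and 1 listed gene is not reported here. Total counts of 39379 to 1079233 per library set the precision. The fits were tested on simulated counts, where 70.4% (KO lines) and 70.1% (control lines) of 2-fold cytokine differences were recovered. Of 1.5-fold cytokine differences, 22.3% (KO lines) and 26% (control lines) were recovered, so that most of that size would be missed. DESeq2 (1.42.0), other filters, scalings, windows and sets of clones, and leaving out each GM-CSF clone were the alternatives. Fits of peaks with at least 50 counts, peaks, 1 kb and distal sums against SCF clones 23 to 29, and summing (fits) or averaging (exact tests) library pairs within sampling noise were chosen after seeing the data.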

Additional observations from a re-analysis of the deposited data

Results flagged for a closer look

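Of 24 groups of 4 libraries searched among the members' values, 2 held a library set apart from the other 3, and chance gives about 1 in 20. In GM-CSF control lines, Cyba was at 68.0 CPM in clone 20 (6 counts), while the other 3 lines had 104 to 110 CPM. In GM-CSF KO lines, Ncf4 was at 0 CPM in clone 19, a library of 40876 counts in which a count of 0 allows up to 73.4 CPM, while the other 3 lines had 107 to 127 CPM.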

How the results depend on the processing

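The KO effect in SCF clones called 643 loci, against 351 with DESeq2, 277 with the promoter share as a covariate, 292 in clones 1 to 18 and 12 in clones 23 to 29, and no member was called in any of these. Without the replicate block it called 466 loci and no member. Between GM-CSF and SCF KO lines, 1167 loci and 3 members were called, against 640 and 1 with DESeq2, 632 and 0 in the 1 kb window, 1 member with no low-count filter and 1 member against SCF clones 23 to 29. Leaving out 1 GM-CSF clone gave 388 to 1175 loci and 1 to 3 members. Between control lines 1601 loci and 3 members were called, against 861 and 0 in the 1 kb window, and 633 to 1541 loci and 1 to 3 members when leaving out 1 GM-CSF clone. Member peaks called numbered 1 in each line type, against 4 in each with at least 50 counts, and 2 in KO lines and 3 in control lines against SCF clones 23 to 29. Within GM-CSF clones, where no locus was called, 3 were with the covariate, 1 in the 1 kb and 1 in the 25 kb window. Differences among SCF clones were called at 173 loci, against 76 in the 1 kb window, 398 in the 25 kb window, 83 in clones 1 to 18 and 41 in clones 23 to 29. The causes were not tested.

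Signs turned in values that were never called. The KO effect of Cyba in GM-CSF clones was 0.0601 in the 25 kb window, and its excess over the effect in SCF clones was 0.128 in the 25 kb window, 0.0708 without shallow clones and 0.0356 without the replicate block. Leaving out 1 GM-CSF clone gave -0.528 to 0.0209 for the KO effect of Cyba and -0.367 to 0.183 for the excess. For Ncf1 it gave -0.255 to 0.0465 for the effect and -0.212 to 0.0889 for the excess. For Ncf4 the KO effect was 0.0579 in SCF clones 23 to 29 and 0.026 in GM-CSF clones in the 25 kb window, and the excess was 0.0737 and 0.11 in the 1 kb and 25 kb windows. For Rac2 the KO effect was 0.0079 in SCF clones 23 to 29, and the control-line cytokine difference was -0.0509 in the 1 kb window.

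Cyba was called under 13 of 14 alternatives in KO lines and 13 of 15 in control lines, Ncf4 under 7 of 15 and 13 of 15, Ncf1 under 0 of 14 and 11 of 14, and Rac2 under 10 of 15 and 0 of 15. The 4 GM-CSF clones limit every cytokine comparison, and 2 of their KO libraries hold so few counts that open member peaks there rest on 0 to 4 counts each.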
